A study of Homo sapiens with 18 samples.

Results

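The erlotinib response of HCC4006 cells transfected with Notch1 siRNA (N1) was measured on the 3 arrays of N1 cells in 0.1 µM erlotinib against the 3 arrays of N1 cells in DMSO, the vehicle. These are 6 of the 18 arrays of the series. Every gene with an array feature of its own was taken, which gave 22411 genes, and the 16314 of them that lay above the median of their array on at least 3 arrays were tested. HCC4006 is a lung adenocarcinoma line with a mutant EGFR, so all results rest on a single line. All cells carried 5 nM siRNA. The other groups, used only where the N1 response is set against them, were cells with control siRNA (NTC) and cells with Notch3 siRNA (N3), each in erlotinib and in DMSO, with 3 arrays a group. The time on drug is 5 days in the series description and 6 days in the paper. RNA came from whole cultures, so fewer cells of a kind and less RNA per cell cannot be told apart.

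EGFR is a receptor tyrosine kinase of epithelial cells. In EGFR mutant lung cancer it signals without need of its ligand, through RAS and the kinase ERK to transcription factors of growth, and through AKT to metabolism and survival. Erlotinib occupies the ATP site of the kinase and stops this signal. Notch1 is a membrane receptor that is cut when it meets a ligand on a neighbouring cell, and its intracellular part then moves to the nucleus and switches on genes of the HES and HEY families. An siRNA directs the destruction of the transcript it matches.

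Values are log2 levels, so a difference of 1 is a 2-fold change. Array medians ran from 4.84 to 5.01 over the 18 arrays, and correlations across features were 0.9949 to 0.9959 among the N1 erlotinib arrays and 0.9954 to 0.9971 among the N1 DMSO arrays. All 11 epithelial markers of the line lay above the array median on all 6 N1 arrays, with summed log2 levels of 103.2 to 103.63 in erlotinib and 103.29 to 103.87 in DMSO. The fibroblast markers DCN, LUM, PDGFRA and FAP, the endothelial markers PECAM1, TEK and EMCN and the immune markers PTPRC, CD3E, CD3D, MS4A1 and LYZ lay below the array median on all 6. No source used here says if a group was grown as separate cultures, so the p-values below measure the spread between arrays, which may be technical.

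The siRNA target was checked in every array. NOTCH1 was at 6.62, 6.59 and 6.54 on the N1 erlotinib arrays and 6.63, 6.50 and 6.50 on the N1 DMSO arrays, against 6.67, 6.67 and 6.65 in NTC erlotinib and 6.87, 6.78 and 6.88 in NTC DMSO. In DMSO the NOTCH1 transcript was lower on every N1 array than on any NTC array, with a log2 difference of -0.30 (standard error 0.0437, adjusted p = 0.00029, limma). In erlotinib each N1 array also lay below each NTC array, but the NOTCH1 difference was only -0.08 (adjusted p = 0.214, limma). The labelled knockdown thus showed as a small difference of the transcript in DMSO and did not pass in erlotinib. For the protein, the paper reports western blots in which each knockdown was specific and looked complete. The arrays do not measure protein. Within N1 cells the NOTCH1 response to erlotinib was 0.04 (adjusted p = 0.44, limma).

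At the thresholds of the study, an unadjusted p under 5e-04 and a change of at least 2-fold, 162 genes were higher and 359 were lower with erlotinib in N1 cells. These are 0.993% and 2.2% of the genes tested. When only an adjusted p under 0.05 was asked for, whatever the fold change, 5168 genes were higher (31.7%) and 3869 lower (23.7%), and the median log2 fold change of all genes was 0.08. On the 521 called genes the 3 erlotinib and the 3 DMSO arrays did not overlap. The call was made on these same arrays, so this adds no support to it. Below, rose, fell and passed refer to this adjusted p, and each list of genes is to be read beside these shares and this median. The array median is the noise limit here. Where all 3 arrays of a group lay at or below it, a fold is a lower bound, computed on each such array from the higher of its median and the level of the gene.

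The largest fall was that of DUSP6, the phosphatase by which ERK limits its own activity. Its log2 level was 4.80, 4.98 and 4.64 in N1 erlotinib cells, against 8.94, 9.08 and 9.20 in N1 DMSO cells. The groups lay far apart, and the log2 fold change was -4.27, or 19.2-fold lower (limma, standard error 0.0798, adjusted p = 1.88e-16). On 2 of the 3 erlotinib arrays DUSP6 was at or below the array median, which limits the precision of this fold. The next 9 genes by size of the fall were DLGAP5, KIF14, SHCBP1, TOP2A, DEPDC1, NDC80, HMMR, NCAPG and NUF2, with log2 fold changes of -3.42 to -3.02, and most are known for work on the mitotic spindle or on chromosomes. KIF14 and DEPDC1 were at or below the array median in erlotinib, so they were at least 6.87-fold and at least 8.36-fold lower. DLGAP5, a spindle protein, was at 6.28, 6.36 and 6.34 in erlotinib and 9.66, 9.80 and 9.79 in DMSO, 10.7-fold lower. TOP2A, the topoisomerase that untangles chromosomes before they part, was at 6.74, 6.89 and 7.03 in erlotinib and 9.98, 10.08 and 10.03 in DMSO, 8.84-fold lower.

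The genes that rose most included enzymes, transporters and secreted proteins. UGT2B15, which attaches glucuronic acid to steroids, was at 8.83, 8.80 and 8.99 in N1 erlotinib cells and 5.17, 5.32 and 5.31 in N1 DMSO cells, which is 12.2-fold higher or 3.61 on the log2 scale (limma, standard error 0.0543, adjusted p = 4.43e-17). Its close relative UGT2B17 rose by 2.86 on the log2 scale, at least 3.94-fold as its DMSO arrays lay below the array median, and since the sequences of these enzymes are much alike, their probes may share signal. SLC40A1, ferroportin, the iron exporter, was at 9.25, 9.28 and 9.30 in erlotinib and 5.92, 6.20 and 6.23 in DMSO, 8.94-fold higher. LGR5, a receptor that amplifies Wnt signals and marks stem cells of the gut, was at 8.88, 8.94 and 9.04 in erlotinib and 5.84, 6.00 and 5.95 in DMSO, 8.13-fold higher. MMP7, a secreted matrix protease, was at 10.19, 10.28 and 10.27 in erlotinib and 7.41, 7.58 and 7.60 in DMSO, 6.57-fold higher. In each of these genes the groups of arrays lay apart, which was a condition of their choice. ANKRD29, AASS, an enzyme of lysine breakdown, the noncoding transcript EGOT, the transporter gene ATP13A4 and C3orf36 completed the 10, with log2 fold changes of 2.66 to 2.10. The DMSO arrays of EGOT, ATP13A4 and C3orf36 lay below the array median, so EGOT rose at least 3.61-fold, ATP13A4 at least 3.58-fold and C3orf36 at least 3.51-fold.

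**Figure D1:**
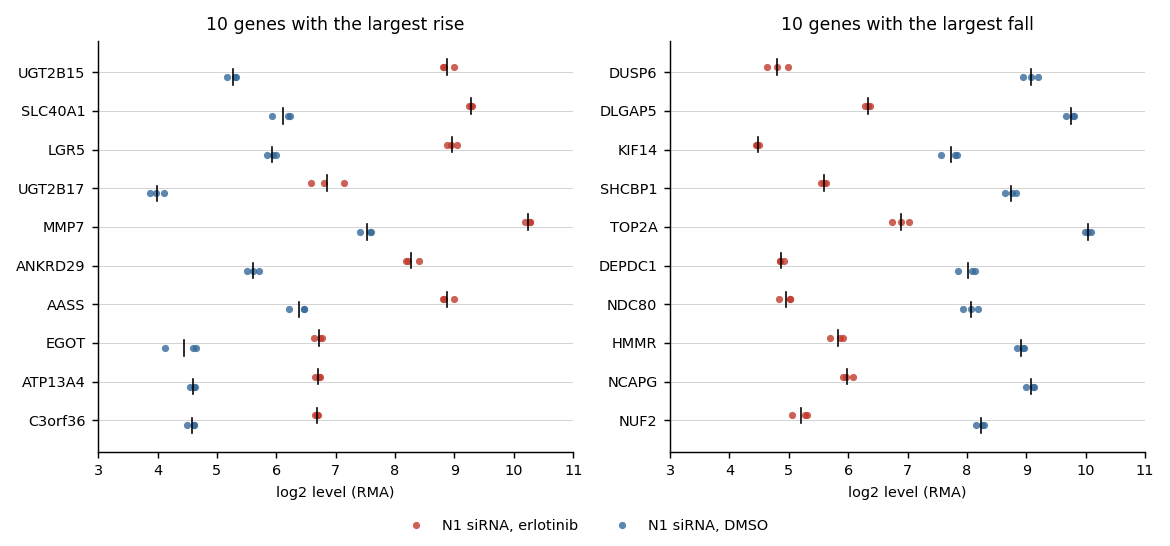
Log2 level (horizontal axis) of the 10 genes with the largest rise and the 10 with the largest fall on the single arrays of N1 cells in erlotinib (red) and in DMSO (blue), with group means as black ticks, n = 3 arrays each. The genes were chosen among those whose erlotinib and DMSO arrays lie apart. They run from 3.61 for UGT2B15 to -4.27 for DUSP6 in log2 fold change.

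Genes downstream of EGFR and ERK fell for the most part. Of 22 measured members, 17 fell, 2 rose and 3 did not pass, 9 of the falls reached the 2-fold threshold, and the median log2 fold change was -0.86. The transcription factor ETV1, of the PEA3 group that ERK turns on, was at 4.66, 4.62 and 4.62 in erlotinib and 6.69, 6.92 and 6.88 in DMSO, at least 3.66-fold lower as its erlotinib arrays lay below the array median. PHLDA1 had a log2 fold change of -2.18 and ETV5, of the same group as ETV1, one of -1.29. Among feedback inhibitors of the pathway, DUSP4 had a log2 fold change of -1.24, SPRED1 of -1.19 and SPRY4 of -1.13. IER3 went against the group, at 9.24, 9.31 and 9.10 in erlotinib and 8.79, 8.67 and 8.91 in DMSO (log2 fold change 0.43), as did the receptor EPHA4 at 0.13. FOS and MYC, which growth factors induce, did not pass, at -0.06 and -0.06. All 3 N1 erlotinib arrays of FOS lay at or below the array median, so its fold is only a bound, at least 1.0-fold lower.

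Ligands and receptors of the ERBB family moved in both directions. Of 10 measured, 5 rose, 3 fell and 2 did not pass, with a median of 0.17. HBEGF, a ligand of EGFR, was at 7.44, 7.44 and 7.54 in erlotinib and 6.15, 6.07 and 6.08 in DMSO, 2.59-fold higher with no overlap of the arrays. ERBB3, the partner receptor that binds PI3 kinase, rose by 0.77, and the ligand BTC by 0.38. ERRFI1, an inhibitor of EGFR that EGFR signaling induces, fell by 1.37, and EGFR itself fell by 0.26. Of 17 receptors and related genes known as bypass routes around EGFR, 7 rose, 7 fell and 3 did not pass, with a median of 0.07. MET, the HGF receptor, was at 7.98, 8.12 and 8.06 in erlotinib and 9.94, 10.04 and 10.08 in DMSO, a log2 fold change of -1.97. The receptor MERTK fell by 1.19 while GAS6, a ligand of that receptor, rose by 0.93.

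The cell cycle list fell as a whole. All 31 measured members fell, 28 of them past the 2-fold threshold, and the median log2 fold change was -2.25. MKI67, the usual marker of dividing cells, was at 7.38, 7.55 and 7.58 in erlotinib and 10.36, 10.44 and 10.47 in DMSO. The checkpoint kinase TTK fell by 2.88 and CCNA2, a cyclin of S phase and mitosis, fell by 2.84. All 15 measured DNA repair genes fell too, 11 past the 2-fold threshold, with a median of -1.94. Among them were the nuclease EXO1 (-2.54), the Fanconi protein FANCI (-2.34), BRCA1 (-2.24) and the helicase BLM (-2.09). Of 16 clustered histone genes, 15 fell and 1 rose, with a median of -1.26. H2BC10 was at 5.47, 5.60 and 5.72 in erlotinib and 8.02, 8.07 and 8.10 in DMSO, whereas H2AC6 was at 7.30, 7.70 and 7.51 in erlotinib and 6.90, 6.88 and 7.09 in DMSO.

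Regulators of entry into the cycle moved by smaller amounts. Of 16, 8 fell, 5 rose and 3 did not pass, with a median of -0.10. CCNE2 and CCND1, cyclins of entry into S phase, had log2 fold changes of -1.84 and -1.24, CDK2 of -1.14, and the pocket protein RBL1 of -1.73. The CDK inhibitor CDKN1B rose by 0.44 and RBL2, a pocket protein of resting cells, by 0.41. Of 13 BCL2 family members, 6 rose, 3 fell and 4 did not pass, with a median of 0.10. The proapoptotic BMF was at 8.27, 8.29 and 8.21 in erlotinib and 6.71, 6.57 and 6.68 in DMSO, a rise of 1.60 with no overlap, followed by BIK (0.37) and BOK (0.33), while BID and PMAIP1, which also promote cell death, had log2 fold changes of -0.30 and -0.29. Of 17 targets of p53, 6 rose, 8 fell and 3 did not pass (median -0.11), from TP53INP1 at 1.71 to AEN at -0.53. Of 17 genes that FOXO factors induce or AKT holds down, 8 rose, 5 fell and 4 did not pass (median 0.10), from PIK3IP1, an inhibitor of PI3 kinase, at 0.89 to ARRDC4 at -0.79.

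The promoters of CCNB2 and PLK1, a cyclin and a kinase of mitosis, are shown because each holds both of the sequence elements known from late cell cycle promoters. CCNB2 was at 5.82, 5.67 and 5.66 in erlotinib and 8.46, 8.58 and 8.62 in DMSO, and PLK1 at 7.81, 7.92 and 7.83 in erlotinib and 10.65, 10.70 and 10.70 in DMSO. The stretches are the 150 bases before the start of the gene in RefSeq, build GRCh38.p14, 5′ to 3′ on the gene's strand, at chr15:59104996-59105145 (+) and chr16:23678739-23678888 (+). Capitals mark the CHR element TTTGAA and the CCAAT box, searched on both strands. A match to one can share 1 base with a match to the other.
CCNB2: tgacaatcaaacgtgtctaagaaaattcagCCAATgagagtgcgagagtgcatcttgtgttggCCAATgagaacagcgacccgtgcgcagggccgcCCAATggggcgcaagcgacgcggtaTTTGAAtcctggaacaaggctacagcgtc
PLK1: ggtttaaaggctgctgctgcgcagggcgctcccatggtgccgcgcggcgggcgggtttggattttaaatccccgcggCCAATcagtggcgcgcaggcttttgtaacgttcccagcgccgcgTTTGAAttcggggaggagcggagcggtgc
Over the 300 bases around the start, TTTGAA was found in 35.76% of the 288 promoters of genes called lower and 12.4% of the 129 of genes called higher, beside 9.67% of the 11741 promoters of all genes tested and 15.43% of all 27305 promoters. CCAAT was found in 57.64% of those called lower and 34.88% of those called higher, beside 35.82% of the genes tested and 35.7% of all promoters. By list, CCAAT was in 84% of 25 cell cycle promoters, 85.71% of 14 sterol and 85.71% of 7 MHC class II promoters. TTTGAA was in 36% of cell cycle, 42.86% of class II and 0% of sterol promoters. In the lysosome, interferon and ERK output lists CCAAT was in 31.58%, 32% and 8.33%, and TTTGAA in 5.26%, 12% and 16.67%. The Ets element CCGGAAG was in 0 of 12 ERK output promoters, beside 16.72% of genes tested. A sterol element was in 0 of 14 sterol promoters, beside 1.13%. These matches describe the windows and were not tested.

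Metabolic genes fell by less than the cell cycle. In sterol synthesis 14 of 15 genes fell and 1 rose, with a median of -0.64. HMGCS1, an early enzyme of the pathway, was at 8.11, 8.28 and 8.27 in erlotinib and 9.42, 9.48 and 9.53 in DMSO, a log2 fold change of -1.26. The sterol carrier STARD4 fell by 1.40, while SC5D, a late desaturase, rose by 0.24. Of 13 genes of fatty acid synthesis, 8 fell, 1 rose and 4 did not pass, with a median of -0.19. SCD, the desaturase that makes oleate, was at 8.79, 8.88 and 8.73 in erlotinib and 10.23, 10.31 and 10.39 in DMSO, the elongase ELOVL6 fell by 1.37, and the synthase FASN fell by 0.49. Of 20 glycolysis genes, 16 fell and 4 did not pass (median -0.43), led by hexokinase HK2 at -0.93 and lactate dehydrogenase LDHA at -0.88. Of 21 genes of ribosome biogenesis, 15 fell and 6 did not pass (median -0.32), among them NOP58 (-0.79) and WDR43 (-0.77). Of 19 genes of the respiratory chain and ATP synthase, 15 fell and 4 did not pass (median -0.18), the largest fall being NDUFS4 at -0.52.

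Lysosome and autophagy genes moved the other way. Of 26, 17 rose, 2 fell and 7 did not pass, with a median of 0.32, and without the first N1 DMSO array 4 fell. CTSS, cathepsin S, a protease that also trims the MHC class II invariant chain, was at 8.12, 8.10 and 8.25 in erlotinib and 6.60, 6.90 and 6.85 in DMSO, a rise of 1.37. The peptidase TPP1 rose by 1.28, GRN, progranulin, by 1.19 and GABARAPL1, an autophagosome protein, by 1.14, and the lysosomal enzyme GLA fell by 0.87. Of 20 genes of ATF4 and serine synthesis, 10 rose, 1 fell and 9 did not pass (median 0.15), with asparagine synthetase ASNS at 0.50 and the cystine transporter SLC7A11 at -0.23. Of 16 targets of the oxidant sensor NRF2, 11 fell, 5 did not pass and none rose (median -0.21). AKR1B10, an aldo-keto reductase, fell at least 2.48-fold, to levels below the array median, and TXNRD1, thioredoxin reductase, fell by 0.67.

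Matrix genes leaned upward. Of 25 targets of TGF-β, 21 rose, 4 did not pass and none fell, with a median of 0.38. COL4A1, a chain of basement membrane collagen, was at 9.75, 9.79 and 9.79 in erlotinib and 8.24, 8.28 and 8.23 in DMSO, a rise of 1.53, and BAMBI, a decoy receptor, rose by 1.40. Of 16 collagens, 12 rose, 1 fell and 3 did not pass (median 0.27), with COL4A3 at 1.74, COL4A4 at 1.45, COL12A1 at 1.39 and COL5A2 at -0.65. Of 5 laminins, LAMB2 (1.00) and LAMB1 (0.18) rose, LAMA4 (at least 1.26-fold lower) fell and 2 did not pass. Of 16 integrins, 6 rose, 6 fell and 4 did not pass (median 0.09), from ITGB3 at 1.00 to ITGA6, which binds laminin, at -1.31. Of 18 matrix metalloproteinases, plasminogen system genes and inhibitors, 13 rose, 3 fell and 2 did not pass (median 0.22), with MMP14 at 0.95 and the plasminogen activator PLAT at -1.29. Of 23 YAP targets, 15 rose and 8 fell (median 0.41). CCN2, a secreted matrix protein, was at 9.31, 9.36 and 9.22 in erlotinib and 7.84, 7.83 and 7.89 in DMSO, and at the other end NT5E, a surface nucleotidase, fell by 1.48.

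Mesenchymal and epithelial genes both held more members that rose than fell. Of 10 mesenchymal genes, 5 rose, 1 fell and 4 did not pass (median 0.24). VIM, the intermediate filament vimentin, was at 10.22, 10.27 and 10.27 in erlotinib and 8.80, 8.79 and 8.76 in DMSO, a rise of 1.47 with no overlap, and SPARC rose by 0.95. The repressors SNAI1 (-0.15) and SNAI2 (-0.06) did not pass, and N-cadherin, CDH2, fell by 0.32. In the epithelial list 13 of 22 rose and 5 fell, while 4 did not pass (median 0.15), and after quantile normalization 3 fell. The junction proteins CLDN3, OCLN and CLDN7 had log2 fold changes of 0.83, 0.70 and 0.59, and the keratins KRT19 and KRT8 of -0.56 and -0.41. Of 11 keratins in all, 2 rose, 4 fell and 5 did not pass, with KRT4 and KRT80 at 0.74 and 0.74. Of the 4 fibroblast markers that could be tested, COL1A2 (0.67), COL1A1 (0.19) and THY1 (0.18) rose, and the summed log2 level of the 8 fibroblast markers on the array was 35.63 to 36.13 in erlotinib and 34.16 to 35.13 in DMSO. Quantile normalization left 1 of the 3 rises. None of 4 tested endothelial markers passed, though 3 rose without the first N1 DMSO array and 1 fell after quantile normalization, and of 4 immune markers ITGAM (0.52) and CSF1R (0.17) rose and CD68 (-0.53) and CD14 (at least 1.06-fold lower) fell. The part of other cell types in these values was not tested.

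**Figure D2:**
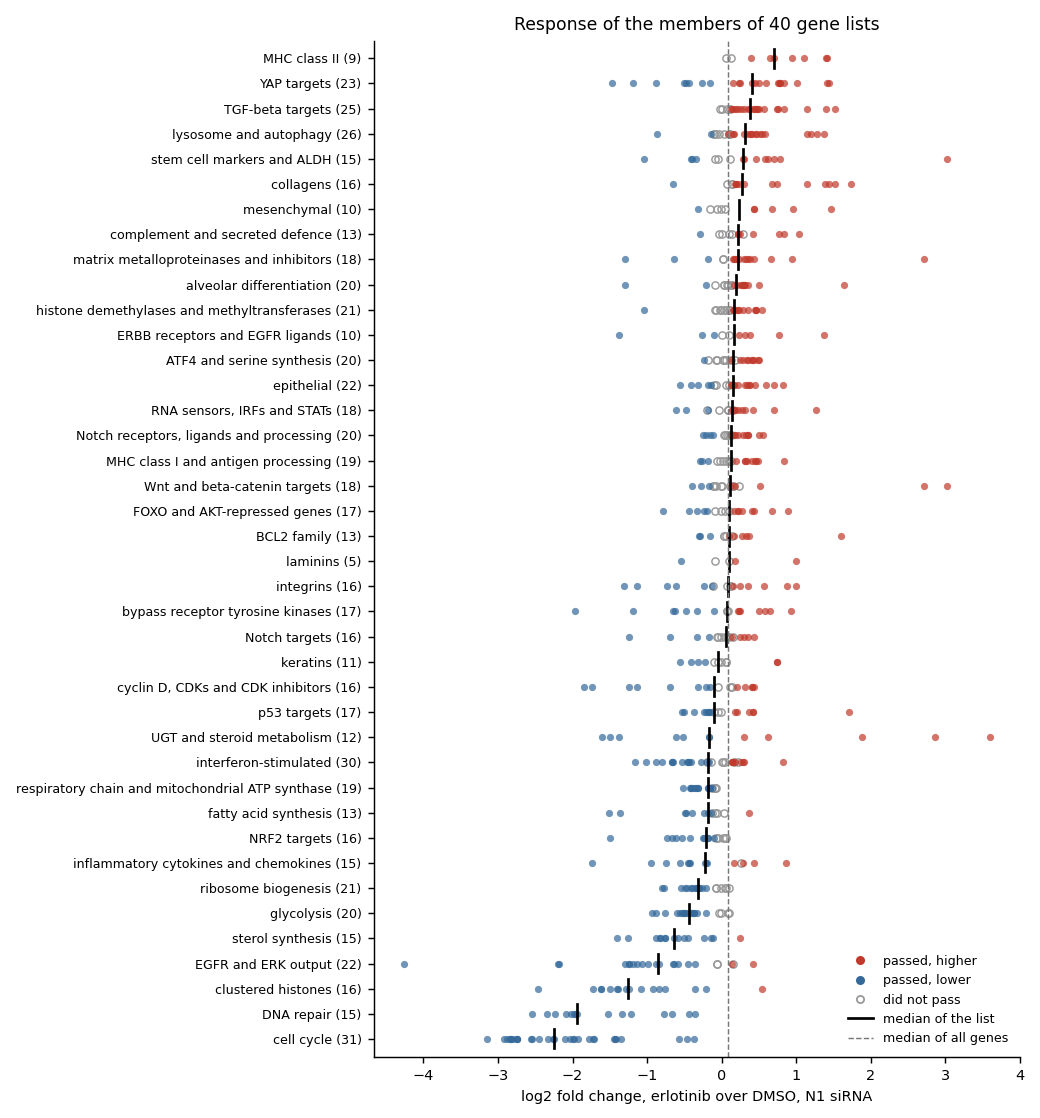
Log2 fold change of erlotinib over DMSO in N1 cells (horizontal axis) for the members of 40 gene lists, with the number measured in brackets. Red and blue points passed, open grey points did not, the black bar is the median of the list and the dashed line the median of all genes, 0.08. The median of the cell cycle list lies at -2.25 and that of MHC class II at 0.70.

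Targets of Wnt and β-catenin held a pair of large rises and little else. Of 18, 5 rose, 3 fell and 10 did not pass, with a median of 0.12, and without the first N1 DMSO array 8 rose. After LGR5 and MMP7 came TNFRSF19 at 0.51, while the adhesion receptor CD44 fell by 0.40. Of 15 stem cell markers and aldehyde dehydrogenases, 8 rose, 4 fell and 3 did not pass (median 0.29). PROM1, the antigen CD133, was at 5.66, 5.67 and 5.71 in erlotinib and 4.91, 4.87 and 4.90 in DMSO, and ALDH2 rose by 0.71, whereas the drug transporter ABCG2 fell by 1.04 and SOX2 fell by 0.41. Of 20 genes of alveolar differentiation, 11 rose, 2 fell and 7 did not pass (median 0.19), led by the alveolar protease NAPSA at 1.64. Of 9 genes taken from those the study named for these arrays, with its GADD45 read as GADD45A, GADD45B and GADD45G, 7 rose and 2 did not pass. The study also named the HIST1H histone family, which is not in this count: 15 of the 16 clustered histone genes fell, as given above. ABI3BP (1.90) and CCN2 (1.44) were among the 9, and as the list was picked on these samples it is not independent evidence of its direction. Of 21 histone demethylases and methyltransferases, 12 rose, 1 fell and 8 did not pass (median 0.17). KDM6B, which removes the H3K27 methyl mark, rose by 0.54, and EZH2, which writes it, fell by 1.04.

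In the Notch pathway, NOTCH3 was at 7.28, 7.26 and 7.12 in N1 erlotinib cells and 6.95, 6.82 and 6.83 in N1 DMSO cells, a rise of 0.35 (standard error 0.0609, adjusted p = 0.000105, limma). NOTCH2 rose by 0.17. Of 20 receptors, ligands and processing genes, 10 rose, 4 fell and 6 did not pass, with a median of 0.13. DLL1, a ligand, rose by 0.51 and NCSTN, a subunit of γ-secretase, by 0.55, whereas the ligand JAG1 fell by 0.21 and the sheddase ADAM10 fell by 0.25. The 4 falls became 2 without the first N1 erlotinib array, without the second N1 DMSO array or without the third. Of 16 Notch targets, 5 rose, 4 fell and 7 did not pass, with a median of 0.06. HES1, the best known of them, was at 7.44, 7.35 and 7.43 in erlotinib and 8.02, 8.12 and 8.15 in DMSO, a log2 fold change of -0.69, and HEYL rose by 0.44. Without the first N1 erlotinib array or without the third N1 DMSO array, 3 targets rose. When genes had to lie above the 75th percentile of their array 1 rose, and targets that missed this limit were not tested.

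Transcripts of MHC class II genes rose for the most part. Of 9 measured genes, 7 rose and 2 did not pass, with a median of 0.70. MHC class II molecules display peptides to helper T cells, and some epithelial cells carry them. CD74, the invariant chain that guards the peptide groove, was at 9.55, 9.54 and 9.49 in erlotinib and 8.14, 8.06 and 8.14 in DMSO. HLA-DRA was at 8.72, 8.79 and 8.71 in erlotinib and 7.27, 7.42 and 7.34 in DMSO. HLA-DPA1 rose by 1.11. HLA-DRB1 rose by 0.95 on the feature used and by 0.47 on its other feature, and class II features can share signal between genes. CIITA, the activator of class II promoters, was at 0.06 and did not pass. Of 19 class I and antigen processing genes, 9 rose, 3 fell and 7 did not pass (median 0.13), with the loading factor TAPBP at 0.84 and PSME2 at -0.28. Of 13 complement and secreted defence genes, 7 rose, 1 fell and 5 did not pass (median 0.22), with CFB at 1.04 and CD46 at -0.29. Of 15 cytokines, chemokines and their regulators, 10 fell, 4 rose and 1 did not pass (median -0.22). CXCL8, interleukin 8, was at 3.90, 3.94 and 3.83 in erlotinib and 5.55, 5.67 and 5.68 in DMSO, at least 1.60-fold lower as its erlotinib arrays lay below the array median, and the chemokine CXCL16 rose by 0.86.

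Genes that interferon induces were mixed and leaned downward. Of 30, 15 fell, 8 rose and 7 did not pass, with a median of -0.18, and without the second N1 erlotinib array 5 rose. IFIT1, which binds foreign RNA ends, was at 6.26, 6.28 and 6.02 in erlotinib and 7.11, 7.22 and 7.70 in DMSO, a log2 fold change of -1.16. OASL fell by 1.01 and HERC5, the ligase of ISG15, fell by 0.88. SAMD9L went the other way, at 9.06, 9.09 and 9.18 in erlotinib and 8.12, 8.27 and 8.46 in DMSO. Of 18 RNA sensors, IRFs and STATs, 9 rose, 3 fell and 6 did not pass (median 0.14). The endosomal sensor TLR3 rose by 1.27, and the cytosolic sensors RIGI and EIF2AK2 had log2 fold changes of -0.61 and -0.48.

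All 12 measured genes of steroid and drug metabolism passed, 5 higher and 7 lower, with a median of -0.17. Besides the UGT2B genes, CYP1A1, the oxidase induced by aryl hydrocarbons, was at 8.59, 8.55 and 8.57 in erlotinib and 6.66, 6.71 and 6.70 in DMSO, a rise of 1.88. AKR1C2, which reduces steroids, was at 4.51, 4.54 and 4.52 in erlotinib and 5.92, 6.33 and 6.12 in DMSO, at least 2.24-fold lower, since its erlotinib arrays lay below the array median (adjusted p = 2.18e-11, limma). AKR1C2 passed the noise filter through the N1 DMSO arrays, where it was high. AKR1C1 had a log2 fold change of -0.62 and AKR1C3 was at least 1.07-fold lower, and the AKR1C genes are so alike that their probes may share signal.

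The N1 response was then set against that of NTC cells, to see which responses differed with the Notch1 siRNA. In NTC cells 596 genes were called at the same thresholds, 222 higher and 374 lower. Called in both responses and in the same direction were 120 higher genes, 74.1% of those called in N1 and 54.1% of those in NTC, and 306 lower genes, 85.2% of those in N1 and 81.8% of those in NTC. Across the 16314 genes the N1 response had a Pearson r of 0.884 and a Spearman rho of 0.727 with the NTC response. The responses share no arrays, and genes are not independent replicates. Tested as a difference of responses, N1 minus NTC, 1312 genes had a higher response in N1 (8.04%) and 984 a lower one (6.03%) at an adjusted p under 0.05, and the median difference of all genes was 0.07. These counts depended on single arrays. Without the first N1 erlotinib array they were 707 higher and 439 lower, without the second 633 and 533, and without the third 2059 and 1409. Without the first N1 DMSO array they were 2639 and 1881, without the second 708 and 459, and without the third 776 and 430. They were 987 and 554 without the first NTC erlotinib array, 694 and 477 without the third, and 851 and 491 without the first NTC DMSO array.

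**Figure D3:**
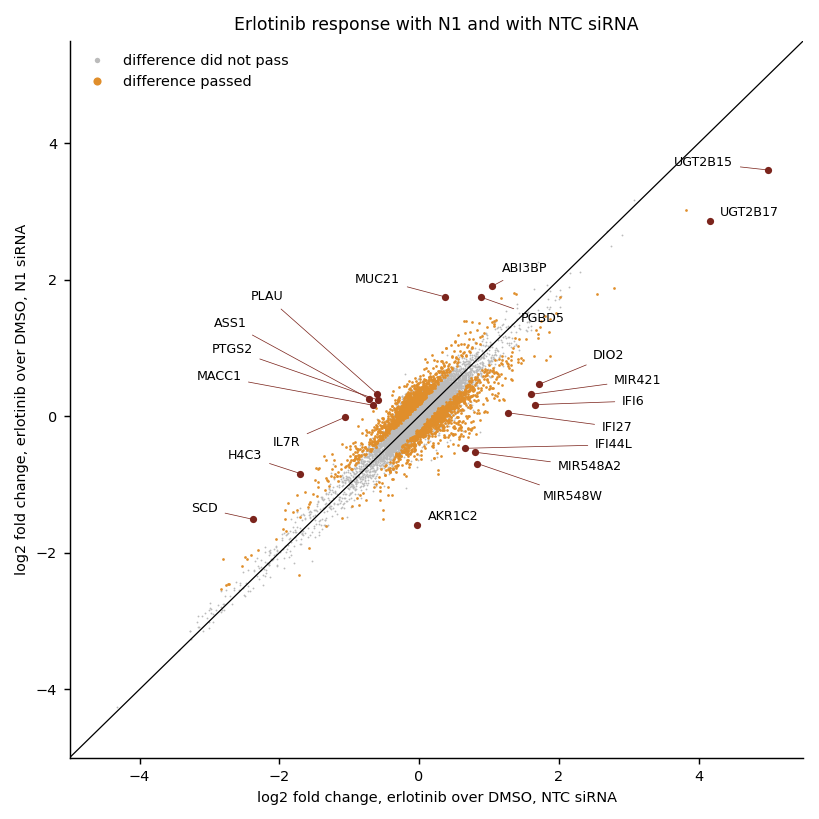
Erlotinib response in N1 cells (vertical axis) against that in NTC cells (horizontal axis), both as log2 fold changes over DMSO, for 16314 genes. Orange points passed the test of the difference, named points are the 10 highest and 10 lowest differences, and the line marks equal responses; UGT2B15 lies below it, at 3.61 in N1 and 4.99 in NTC.

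Among the 31 cell cycle genes none passed the test of the difference in either direction, and their median response was -2.25 in N1 and -2.23 in NTC. After quantile normalization 8 of them had a higher response in N1, and 4 did at the limit of the 75th percentile. The 10 genes that fell most in N1 had differences of -0.09 to 0.14, and none of these passed. DUSP6 had a log2 fold change of -4.27 in N1 and -4.32 in NTC, where its erlotinib arrays all lay at or below the array median. MMP7 had one of 2.72 in N1 and 2.69 in NTC. Of the ERK output genes 5 had a higher response in N1 and 1 a lower one. The 5 became 2 without the second N1 erlotinib array, and 3 without the first or without the third NTC erlotinib array.

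Many sterol, lipid and sugar genes fell less in N1 than in NTC. Of 15 sterol genes, 8 had a higher response in N1 and 1, SC5D, a lower one, and the median response was -0.64 in N1 and -0.88 in NTC. Without the third NTC erlotinib array the 8 became 5, and with the replicate number in the model they became 4. SC5D was near the threshold (adjusted p = 0.0247, limma) and lost the call without the first or second N1 erlotinib, the second N1 DMSO, the third NTC erlotinib or the first NTC DMSO array (adjusted p of 0.0568 to 0.0709, limma) and when the model held the compared arrays alone (adjusted p = 0.0702, limma). SQLE, an epoxidase of the pathway, was at 8.33, 8.41 and 8.43 in N1 erlotinib and 9.06, 9.19 and 9.18 in N1 DMSO, against 7.59, 7.54 and 7.61 in NTC erlotinib and 9.03, 9.06 and 9.06 in NTC DMSO, a difference of 0.72. DHCR7, the last enzyme of cholesterol synthesis, had responses of -0.64 in N1 and -1.33 in NTC, and MSMO1 of -0.76 in N1 and -1.43 in NTC. In fatty acid synthesis, 6 of 13 genes had a higher response in N1 and none a lower one. SCD was at 7.94, 7.83 and 7.97 in NTC erlotinib and 10.31, 10.32 and 10.26 in NTC DMSO, so that its response was -1.51 in N1 and -2.38 in NTC, a difference of 0.87 (standard error 0.0768, adjusted p = 4.51e-06, limma). Of 20 glycolysis genes, 9 had a higher response in N1 and none a lower one, with HK2 at -0.93 in N1 and -1.49 in NTC.

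MHC class II transcripts rose more in N1. Of 9 genes, 8 had a higher response and none a lower one, and the median response was 0.70 in N1 and 0.28 in NTC. HLA-DRA had a response of 1.40 in N1 and 0.64 in NTC, a difference of 0.76 (adjusted p = 0.000123, limma). Of 22 epithelial genes, 12 had a higher response in N1 and none a lower one, and the median response was 0.15 in N1 and 0.01 in NTC. CLDN3 had responses of 0.83 in N1 and 0.21 in NTC, a difference of 0.62. Of 10 mesenchymal genes, SPARC had a higher response in N1 and 4 had a lower one, VIM among them with 1.47 in N1 and 1.81 in NTC. In the Notch receptor and ligand list 4 genes had a higher response in N1, NOTCH3 among them at 0.35 in N1 and 0.00 in NTC (adjusted p of the difference 0.0152, limma). This count was 2 without the first or second N1 erlotinib array, the second or the third N1 DMSO array, the first or the third NTC erlotinib array, or the first NTC DMSO array, and 1 when the model held the compared arrays alone.

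The 10 genes with the highest differences included several that moved in opposite directions in N1 and NTC. PLAU, the urokinase that activates plasminogen, was at 9.27, 9.27 and 9.28 in N1 erlotinib and 8.95, 8.96 and 8.93 in N1 DMSO, against 8.65, 8.65 and 8.54 in NTC erlotinib and 9.28, 9.19 and 9.18 in NTC DMSO. The response of PLAU was thus 0.33 in N1 and -0.60 in NTC. PTGS2, the inducible cyclooxygenase, had responses of 0.24 in N1 and -0.59 in NTC, ASS1, an enzyme of arginine synthesis, of 0.25 in N1 and -0.71 in NTC, and MACC1, known as an inducer of MET, of 0.16 in N1 and -0.66 in NTC. MUC21, a surface mucin, was at 8.23, 8.21 and 8.03 in N1 erlotinib and 6.51, 6.26 and 6.46 in N1 DMSO, against 7.48, 7.49 and 7.44 in NTC erlotinib and 7.20, 7.07 and 7.01 in NTC DMSO, and its difference of responses was the highest, 1.37 (standard error 0.0935, adjusted p = 3.33e-07, limma). IL7R, the interleukin 7 receptor, had a response of -0.02 in N1 and -1.06 in NTC. ABI3BP, a matrix protein, was at 6.82, 6.85 and 6.90 in N1 erlotinib and 4.89, 4.98 and 5.00 in N1 DMSO, against 5.68, 5.69 and 5.74 in NTC erlotinib and 4.73, 4.65 and 4.62 in NTC DMSO, a difference of 0.86. All 3 NTC DMSO arrays and 1 N1 DMSO array of ABI3BP lay at or below the array median. The size of this difference is thus set against the noise limit. PGBD5, SCD and the histone H4C3 completed the 10, with differences of 0.86, 0.87 and 0.86.

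Among the 10 lowest fitted differences was that of AKR1C2, -1.57. On the NTC arrays AKR1C2 was at 4.58, 4.68 and 4.65 in erlotinib and 4.56, 4.74 and 4.70 in DMSO, all below the array median, so the N1 DMSO arrays alone were high and the size of the difference is set against the noise limit. UGT2B15 was at 10.40, 10.33 and 10.31 in NTC erlotinib and 5.28, 5.42 and 5.36 in NTC DMSO, and its response was 3.61 in N1 and 4.99 in NTC. Here the N1 and NTC levels differed in erlotinib, by -1.47, and by -0.09 in DMSO, where the difference did not pass. UGT2B17 followed, with 2.86 in N1 and 4.16 in NTC. Its DMSO arrays lay at or below the array median in N1 and in NTC, so these sizes are set against the noise limit. Of the 12 genes of steroid and drug metabolism, 9 had a lower response in N1 and none a higher one. At the limit of the 75th percentile 5 had a lower one, but members that missed this limit, AKR1C2 among them, were not tested there. DIO2, which activates thyroid hormone, was at 7.35, 7.31 and 7.48 in N1 erlotinib and 6.84, 6.97 and 6.93 in N1 DMSO, against 7.86, 7.68 and 7.86 in NTC erlotinib and 5.88, 5.97 and 6.40 in NTC DMSO, a difference of -1.25.

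**Figure D4:**
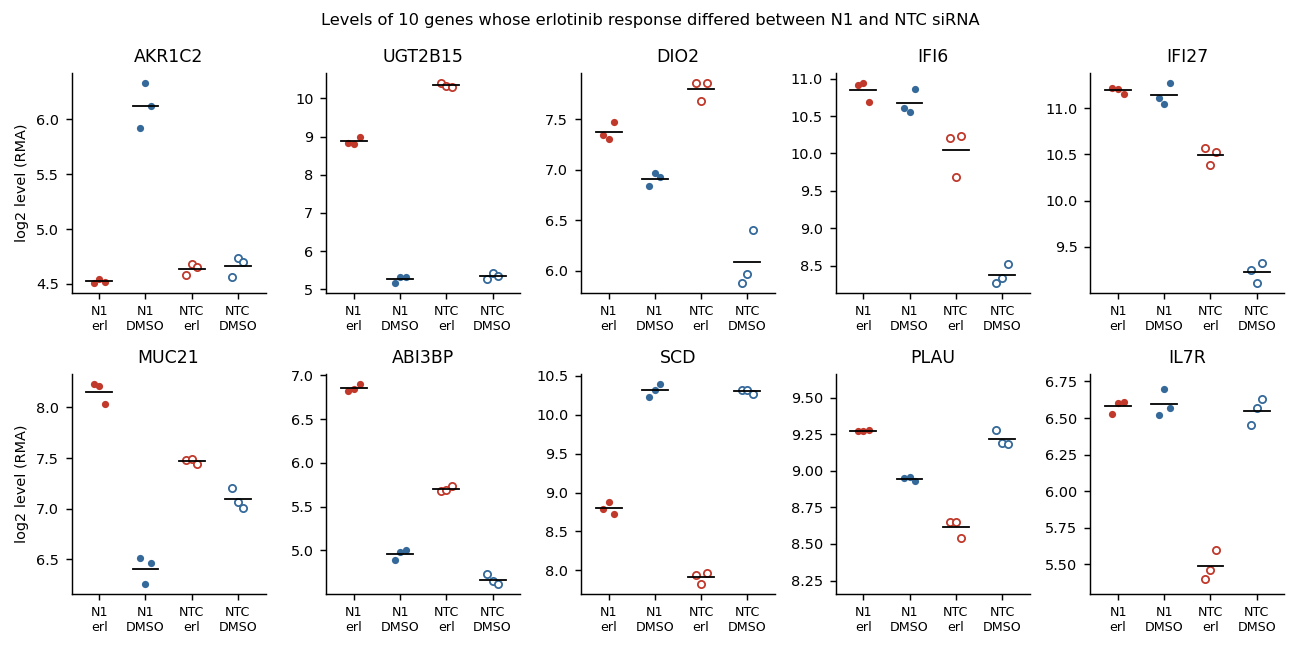
Log2 level (vertical axis) on the single arrays of N1 erlotinib, N1 DMSO, NTC erlotinib and NTC DMSO cells for 10 genes whose response differed, with group means as black bars, n = 3 arrays each. AKR1C2 is high only in N1 DMSO, IFI6 and IFI27 are lowest in NTC DMSO, and the response of SCD is -1.51 in N1 and -2.38 in NTC.

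Of the 30 interferon-induced genes, 14 had a lower response in N1 than in NTC and 1, BST2, a higher one, and the median response was -0.18 in N1 and 0.13 in NTC. IFI6, a mitochondrial protein, was at 10.91, 10.94 and 10.69 in N1 erlotinib and 10.61, 10.56 and 10.86 in N1 DMSO, against 10.21, 9.68 and 10.23 in NTC erlotinib and 8.27, 8.34 and 8.52 in NTC DMSO. The N1 arrays of IFI6 all lay above every NTC array. Its response was 0.17 in N1 and 1.66 in NTC, a difference of -1.49 (standard error 0.187, adjusted p = 0.000172, limma), and in DMSO its level was 2.30 higher in N1 than in NTC (adjusted p = 7.09e-09, limma). IFI27 was at 11.22, 11.21 and 11.15 in N1 erlotinib and 11.11, 11.05 and 11.27 in N1 DMSO, against 10.57, 10.39 and 10.53 in NTC erlotinib and 9.25, 9.11 and 9.32 in NTC DMSO, a difference of -1.22. IFI44L had responses of -0.47 in N1 and 0.66 in NTC. The median log2 level of the 30 genes was 8.0 in N1 erlotinib and 8.34 in N1 DMSO, against 7.06 in NTC erlotinib and 6.97 in NTC DMSO. The part of this level in the difference of responses was not tested.

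**Figure D5:**
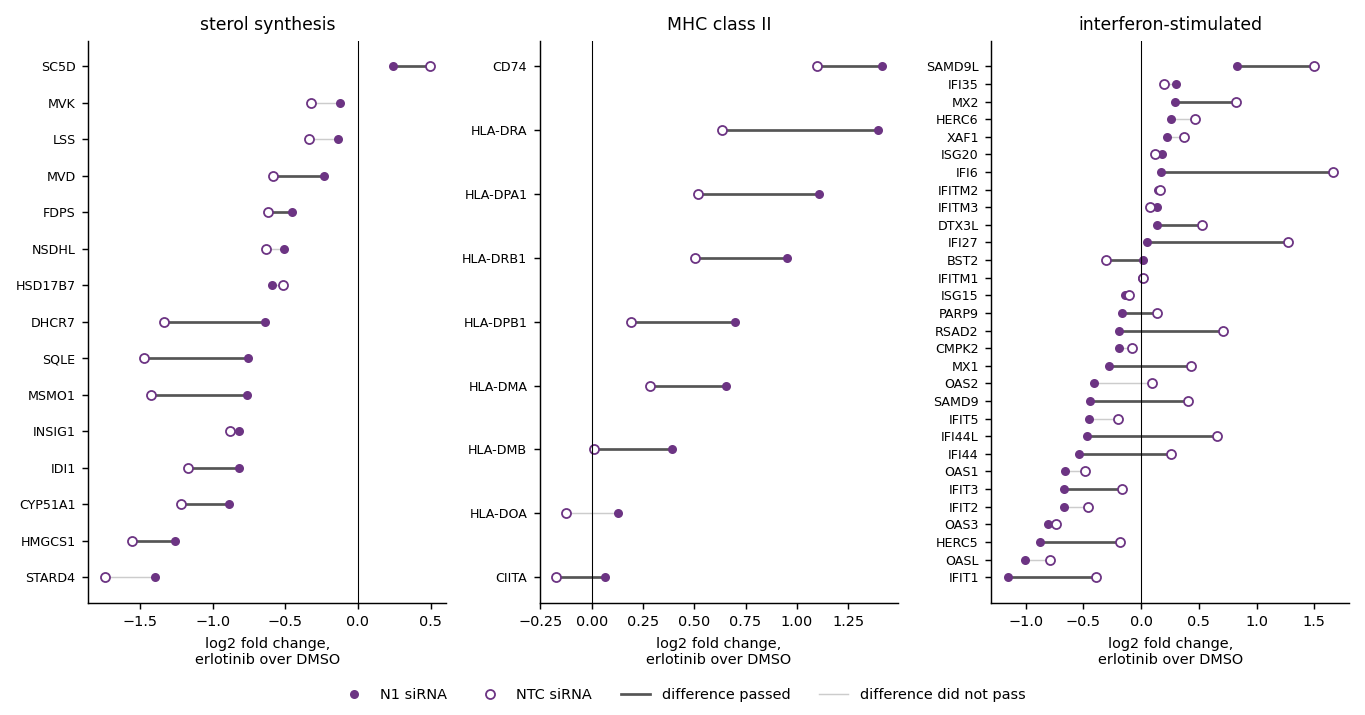
Erlotinib response as log2 fold change over DMSO (horizontal axis) for the members of the sterol synthesis, MHC class II and interferon-stimulated lists, in N1 cells (filled) and NTC cells (open). Dark connecting lines mark a difference that passed: 8 higher and 1 lower in N1 among sterol genes, 8 higher among class II genes, and 1 higher and 14 lower among interferon genes.

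The promoter of IFI27 is shown because it holds a pair of matches to the interferon-stimulated response element, read here as GAAA, any 2 bases and GAAA on either strand, in capitals. It is the 150 bases before the start in RefSeq, at chr14:94110586-94110735 (+), build GRCh38.p14.
IFI27: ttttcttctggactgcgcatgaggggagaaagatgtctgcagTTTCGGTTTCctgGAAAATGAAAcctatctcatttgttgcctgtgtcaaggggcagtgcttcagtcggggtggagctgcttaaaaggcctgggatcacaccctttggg
Over the 300 bases around the start, 17 of the 25 promoters matched for the list held this element (68%), beside 2.55% of all genes tested and 3.65% of all promoters. The genes were listed for their induction by interferon, so this share describes the list.

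MicroRNA genes of the MIR548 family had lower responses in N1. The members of this family are spread over many chromosomes, and the arrays read the transcript of the gene, not the mature microRNA as such. Of 25 members tested, all 25 had a difference below 0, 20 of them past the test, and the median response was -0.26 in N1 and 0.57 in NTC. Of all 447 microRNA genes, 36 had a lower response (8.05%), and the median difference was 0.14. MIR548W was at 5.94, 5.77 and 6.75 in N1 erlotinib and 6.75, 6.78 and 7.01 in N1 DMSO, against 7.40, 6.75 and 6.98 in NTC erlotinib and 5.82, 6.56 and 6.25 in NTC DMSO, a difference of -1.53 (standard error 0.366, adjusted p = 0.0139, limma). Its arrays spread widely within each group. MIR548A2 had a difference of -1.32, and MIR421, of another family, of -1.28, with responses of 0.32 in N1 and 1.60 in NTC. The MIR548 members are near copies of each other, so their features may share signal and do not count as 25 separate genes.

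Mature sequences from RefSeq, build GRCh38.p14, are given for MIR421 and for MIR548 members over the range of differences, with the seed, bases 2 to 8, in capitals, to show which members share it. They lie at chrX:74218392-74218414 (-), chr16:26025246-26025268 (+), chr11:94466545-94466566 (-), chr21:18686135-18686157 (-), chr4:147344681-147344703 (-) and chr2:35471453-35471474 (+), in the order printed.
hsa-miR-421: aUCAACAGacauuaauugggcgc
hsa-miR-548w: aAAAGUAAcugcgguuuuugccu
hsa-miR-548l: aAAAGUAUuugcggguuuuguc
hsa-miR-548x-5p: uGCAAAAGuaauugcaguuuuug
hsa-miR-548g-5p: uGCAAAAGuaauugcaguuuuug
hsa-miR-548ad-3p: gAAAACGAcaaugacuuuugca
Among the members matched to a sequence, the seed GCAAAAG is shared by 4 genes, MIR548AJ2, MIR548F1, MIR548G and MIR548X. Their differences were -0.76, -0.88, -0.86 and -1.03. No other matched member had the seed printed for MIR548L (-1.12), MIR548W or MIR548AD (-0.37, adjusted p = 0.121, limma). Several tested members, MIR548A2, MIR548D1 and MIR548H2 among them, were not matched. A seed shared with those was not looked for, so none of these seeds can be called particular to its gene. All 3 N1 erlotinib arrays of MIR548L lay at or below the array median, so the size of its difference is set against the noise limit. Of 187 small nucleolar RNA genes, which guide the modification of other RNAs, 93 rose and 12 fell with erlotinib in N1 (median 0.27). These are 49.73% and 6.42%, beside 31.68% and 23.72% of all genes tested. A lower response in N1 than in NTC was seen for 19 (10.16%) and a higher one for 2 (1.07%), beside 6.03% and 8.04% of all genes.

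Set against N3 cells, 2774 genes had a higher response in N1 (17%) and 1649 a lower one (10.1%), and the Pearson r of the responses across genes was 0.863. MGP, an inhibitor of calcification, had the highest difference, 2.26. It was at 8.25, 8.26 and 8.29 in N1 erlotinib and 8.65, 8.71 and 8.79 in N1 DMSO, against 6.73, 6.70 and 6.75 in N3 erlotinib and 9.47, 9.46 and 9.37 in N3 DMSO. PLAT had responses of -1.29 in N1 and -3.04 in N3, and NT5E of -1.48 in N1 and -3.08 in N3. HLA-DRA had responses of 1.40 in N1 and -0.05 in N3 (adjusted p of the difference 4.5e-08, limma). LGR5 had the lowest difference, -1.78, with a response of 3.02 in N1 and 4.80 in N3. CCN2 had a response of 1.44 in N1 and 0.30 in N3.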

How the data were processed

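RNA of HCC4006 cells was measured on 18 Affymetrix Human Transcriptome Arrays, 3 in each of 6 groups. The authors deposited log2 values with 2 decimals, made in Affymetrix Expression Console by background correction, normalization and probe set summarization (software version and genome build: not given in the sources used here). Of 70523 features, 23781 named 1 gene, 1543 several and 45199 none. Symbols of 306 features were updated. Features above the median of their array on at least 3 arrays were kept, with 1 feature a gene, that of the highest mean, which left 16314 genes. A linear model of the 6 group means was fitted to all 18 arrays with limma 3.58.1 in R 4.3.3 (lmFit, contrasts.fit, eBayes, two-sided, Benjamini-Hochberg adjustment over all genes tested). The number of arrays limits the precision. The steps were tested on simulated data.

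Genes were named by a rule: the 10 highest and 10 lowest called log2 fold changes whose arrays did not overlap, for each list the 4 largest members past an adjusted p of 0.05 and up to 2 against the direction of the list, the 10 highest and 10 lowest differences of response to NTC, and NOTCH1, NOTCH2, NOTCH3, HES1 and MMP7; members of a list that did not pass could be named with their values. AKR1C3, CCNA2, DHCR7, DUSP4, MGP, MSMO1, PLK1, SPRED1, SPRY4, SQLE, MIR1290, RNU7-24P, TAS2R30 and the MIR548 members other than MIR548W and MIR548A2 fall outside it and were chosen after their values were seen. The comparisons, members and all 45 lists were chosen with earlier results of these data known. The alternatives tried were: every gene without the filter, a stricter one at the 75th percentile, all features, only the compared arrays, quantile normalization, a mean-variance trend with robust settings, other thresholds, a replicate block and leaving out each array. Promoter and microRNA sequences are from RefSeq, build GRCh38.p14. Features that name several genes or none were not used.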

Additional observations from a re-analysis of the deposited data

Results flagged for a closer look

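The erlotinib response of 15 genes differed between N1 and NTC cells by at least 2-fold and at an unadjusted p under 5e-04 in the test of the difference itself (limma, N1 minus NTC), 2 higher and 13 lower. MUC21 at 1.37 and IL7R at 1.05 had the higher response in N1. AKR1C2 at -1.57, UGT2B15 at -1.39, UGT2B17 at -1.30 and DIO2 at -1.25 had the lower response, as did the interferon-induced IFI6 at -1.49, IFI27 at -1.22 and IFI44L at -1.13 and the noncoding or receptor genes MIR548A2 at -1.32, MIR421 at -1.28, MIR548L at -1.12, MIR1290 at -1.06, RNU7-24P at -1.01 and TAS2R30 at -1.08. Of the 15, the 11 apart from MIR548L, MIR1290, RNU7-24P and TAS2R30 were refitted under the alternatives. The call followed there was an adjusted p under 0.05 (limma), not the thresholds above. All 11 kept the direction and this adjusted p call of the difference under every alternative run, except that AKR1C2 was not among the genes tested at the limit of the 75th percentile. Whether each gene stayed past 2-fold and an unadjusted p under 5e-04 in those refits was not tested. The difference of AKR1C2 is set against levels below the array median in all groups but N1 DMSO. That of UGT2B17 is set against such levels in N1 DMSO and NTC DMSO, and that of MIR548L in N1 erlotinib. In DMSO the N1 level lay above the NTC level by 1.46 for AKR1C2, 2.30 for IFI6, 1.92 for IFI27 and 2.94 for IFI44L. Groups of 3 arrays were not tested for single arrays far from the others.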

How the results depend on the processing

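The counts of genes called in N1 stayed within 155 to 172 higher and 344 to 380 lower when single arrays were left out, and were 342 and 565 features when every feature was kept, and 5168 and 3869 genes at the adjusted p alone. The differences of response were less stable. Leaving out single arrays gave 633 to 2639 genes with a higher and 430 to 1881 with a lower response in N1 than in NTC, and 1974 to 3276 and 1185 to 2148 against N3. Against NTC, higher and lower counts were 637 and 456 when the model held the compared arrays alone and 2 and 13 at the thresholds of the study, and 1730 features were lower with all features. Against N3 they were 29 and 39 at the thresholds of the study, and 3706 features were lower with all features. The cause of these shifts was not tested. The share of higher among all calls was 57.1% against NTC and 62.7% against N3, and with all features 45.2% and 49.7%. In N1 the median of all genes was 0.08, and 0.025 after quantile normalization. The NOTCH1 difference of N1 from NTC ran from -0.0983 to -0.0583 in erlotinib and from -0.3433 to -0.2783 in DMSO.

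To look for pairing, the mean of its group was subtracted from each level of a gene, and these deviations were correlated across genes. Deviations on same-numbered arrays of N1 erlotinib and N1 DMSO had correlations of 0.366, -0.006 and 0.16. Those of NTC erlotinib and NTC DMSO had correlations of -0.388, -0.246 and 0.228, so the numbers were not taken to pair the arrays. Between N1 DMSO and NTC DMSO the correlations of the deviations were 0.688, 0.245 and 0.494, all above 0, and no label says what a number shares. With the replicate block the N1 counts were 162 and 359, and the differences to NTC 695 and 589. When the model held the compared arrays alone 6 sterol genes had a higher response in N1 than in NTC, in place of 8. With the block 4 sterol genes had a higher response and none a lower one, 2 Notch receptor and ligand genes had a higher response and 2 endothelial markers rose. No paired fit against N3 was possible because the N3 erlotinib arrays, numbered 4 to 6, share no numbers with the others. No value of a named gene changed sign under an alternative where it passed in the main fit or in that alternative. A change of sign was not counted where neither passed. The call followed here was an adjusted p under 0.05. Of 216 named genes, 10 lost this call in N1 under at least 1 alternative and 2 gained it. For the difference to NTC 30 lost the call and 43 gained it. Only a gene that passed in the main fit could lose the call. Not all of the 216 passed the difference there, DUSP6 among those that did not, so 216 is not the base of the 30.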
